A study of Homo sapiens with 18 samples.

Results

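The combination of fenofibrate and ezetimibe was compared with the DMSO control in Cal51, an established human breast cancer cell line. The genes described are all rows of the authors' deposited table for that contrast. They number 3508 of the 3647 genes listed in any of the 3 drug tables of the series, and 2303 of them had a mean of 50 or more normalized reads over the 6 libraries. The study sequenced 18 libraries, and 6 are used here: 3 of Cal51 cells given fenofibrate plus ezetimibe and 3 of Cal51 cells given DMSO, each for 8 h. The labels name no dose, no passage and no genetic change in these 6 samples. They number the replicates without saying that they were separate cultures, so the spread between libraries may be technical. Libraries were made from total RNA with a SMARTER mRNA kit. Values are read counts that the authors divided by a factor for each library. The table holds only genes that the authors called at a change of more than 1 on the log2 scale in either direction and an adjusted p below 0.05. A gene that is not listed can therefore be unchanged, changed by less or too low to test, and it is written of here only as not listed.

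Fenofibrate is a lipid-lowering fibrate that activates PPARα, a nuclear receptor of fatty acid breakdown. Ezetimibe blocks NPC1L1, a sterol transporter of the gut and liver. Secreted and membrane proteins are folded in the endoplasmic reticulum (ER). When folding falls behind, the sensors IRE1, PERK and ATF6 start the unfolded protein response: IRE1 splices the mRNA of the factor XBP1, PERK slows translation and favours the factor ATF4, and ATF6 is cut to release a transcription factor. XBP1 and ATF6 switch on chaperones and export genes through short promoter elements, and ATF4 switches on amino acid supply and, with DDIT3 (CHOP), growth arrest and death genes. Cells under such stress often leave the division cycle, whose S phase genes are driven by E2F factors.

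Reads in the listed genes numbered 2550718 to 3265200 per library, and the authors' factors ran from 0.912 to 1.09. Library depth over all genes is unknown, since other genes are not in the table. Combination replicate 1 stood somewhat apart from the other two: the chi-square per gene was 32.7 and 23.0 against them and 3.21 between them, while the DMSO pairs ranged from 6.43 to 27.6. No pair of libraries looked like a repeat of the same library. Markers of other cells could be checked only among listed genes. None of 9 endothelial and none of 7 adipocyte markers was listed. Of 14 immune markers, ITGAM was higher on few reads (50.4, 69.5 and 53.6 normalized reads with the combination and 13.7, 24.8 and 16 with DMSO). Epithelial and fibroblast markers are given with the matrix genes.

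Both directions were well represented among well-expressed genes. The authors listed 17.6% of the 19944 genes over which, by inference from the p-values, they adjusted: 2058 as higher (10.3%) and 1450 as lower (7.27%). Every listed gene was called again by limma at an adjusted p under 0.05 (100% of 3508 rows, 58.7% higher and 41.3% lower), and 3473 rows (99%) had no overlap between combination and DMSO libraries. Of the 2303 rows with a mean of 50 or more, limma called 100%, of which 1128 (49%) were higher and 1175 (51%) lower, and 2296 (99.7%) had no overlap. The authors chose the rows on these same libraries, so these shares follow from the choice and the limma p-values only describe how firmly listed genes differ.

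Rises reached further than falls. In rows with a mean of 50 or more the median rise was 1.44 and the median fall -1.37 on the log2 scale, but 279 genes rose and 194 fell by 4-fold or more, and 44 rose and 1 fell by 16-fold or more. The largest rise was that of KLHDC7B and the largest fall that of METTL7A, both described further on. Each gene list below is set against the shares listed over all genes, 10.3% as higher and 7.27% as lower, and its median against those of all rises and falls. A list's share counts all its members, also any too low to test. The shares over all genes count only the 19944 adjusted over.

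**Figure D1:**
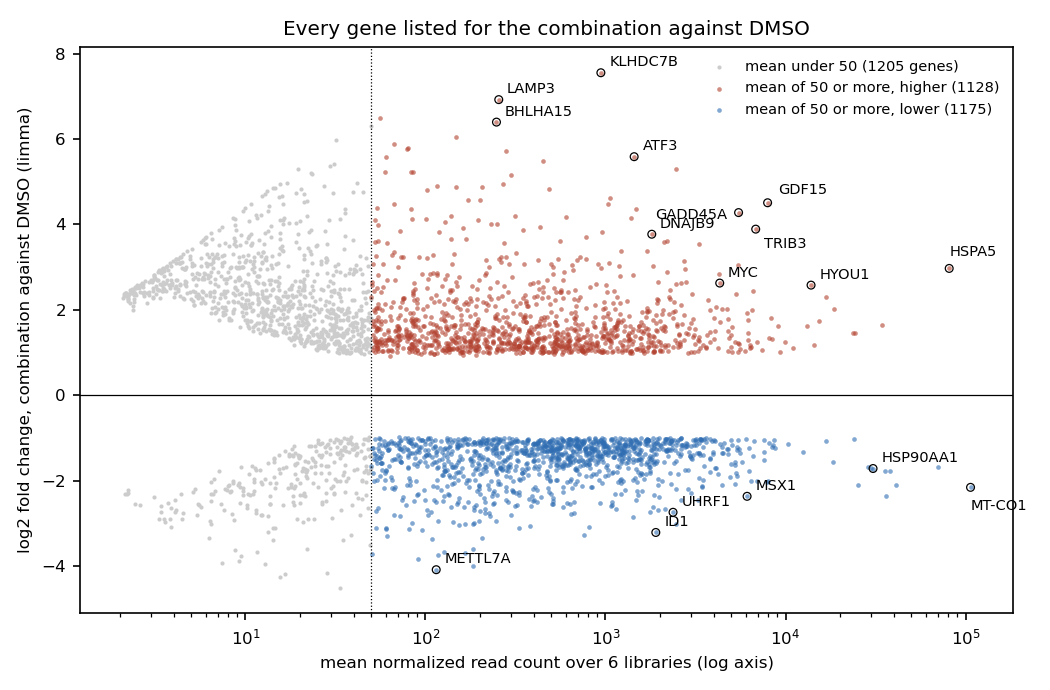
Each point is a gene of the table, with its mean normalized read count over the 6 libraries on a log axis and its limma log2 fold change, combination against DMSO, on the vertical axis. The dotted line marks a mean of 50. Rises reach 7.55 (KLHDC7B), falls reach -4.08 (METTL7A) among genes right of that line, and HSPA5 and MT-CO1 stand at the far right in opposite directions.

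Listed sensors and factors of the unfolded protein response were all higher, 5 of 14 members (35.7%), with a median log2 fold change of 2.02. ERN1, which encodes IRE1 (chromosome 17, 64039142 to 64130819), had 1768, 2538 and 2372 normalized reads in combination replicates 1 to 3 and 198, 222 and 208 in the DMSO libraries. All 3 combination libraries lay above every DMSO library, with replicate 1 the lowest of them, and the mean rose 10.6-fold (log2 3.39 ± 0.14 SE, limma adjusted p = 2.92e-08). XBP1, the factor whose mRNA IRE1 splices, rose 4.07-fold, from 1682, 1763 and 1795 to 7888, 6705 and 6712. The PERK gene EIF2AK3 (822 ± 91.1 against 260.1 ± 19, mean ± SD, n = 3 each) and ATF6 (2579 ± 94 against 1160.4 ± 145) rose by less. BHLHA15 (MIST1), a factor of secretory cells that XBP1 is known to induce, went from 5.86, 8.26 and 2.13 to 481, 479.98 and 510.4, a change of 6.39 ± 0.36 on the log2 scale. ATF4 itself, whose control is largely at translation, was not listed, and neither were ATF6B and the CREB3 family members on the list.

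Promoters were searched for the elements that these factors are known to bind. Upstream sequence came from RefSeq (GRCh38.p14), the 250 bases before the first start site of each gene, for 1662 protein-coding rows with a mean of 50 or more that matched by symbol: 804 of higher genes and 858 of lower genes. The ER stress element ERSE, searched on both strands as CCAAT and CCACG with 9 free bases between them, stood in 7 promoters of higher genes (0.871%), 0 of lower genes and 0.0806% of all 27305 promoters. The 7 genes were HSPA5, FICD, XBP1, SERP1, HSP90B1, CRELD2 and ERO1B, with log2 fold changes from 1.64 to 3.23. The related ERSE-II (ATTGG, 1 free base, CCACG) stood in 4 promoters of higher genes, in that of the lower gene ZNF143 and in 0.0513% of all, and the element UPRE, TGACGTGG, in 17 of higher genes (2.11%), 1 of lower genes (0.117%, TFDP1) and 0.667% of all. The ATF4 and CHOP element CARE, TGATGNAA, stood in 2.24% of higher, 1.52% of lower and 3.19% of all promoters. A match is letters in a window and not a measured binding site. The 27305 promoters, here and for the elements below, were not limited by gene type or expression. They are thus an unlike set to the higher and lower genes.

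HSPA5 is shown because it gained the most reads of all rows, and HYOU1 because its window holds both ERSE-II and UPRE. Both sequences are the 200 bases before the start site on the minus strand, 5′ to 3′, at chr9:125241344-125241543 and chr11:119057206-119057405. Capitals mark the ERSE of HSPA5 (position -66 from the start) and, in HYOU1, a UPRE at -188 that overlaps an ERSE-II at -185, and a further ERSE-II at -79. The ERSE-II copies are read on the other strand.
HSPA5: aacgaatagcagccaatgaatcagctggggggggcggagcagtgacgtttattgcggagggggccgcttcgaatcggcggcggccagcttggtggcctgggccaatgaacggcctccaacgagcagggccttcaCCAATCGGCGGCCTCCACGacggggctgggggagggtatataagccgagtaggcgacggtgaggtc
HYOU1: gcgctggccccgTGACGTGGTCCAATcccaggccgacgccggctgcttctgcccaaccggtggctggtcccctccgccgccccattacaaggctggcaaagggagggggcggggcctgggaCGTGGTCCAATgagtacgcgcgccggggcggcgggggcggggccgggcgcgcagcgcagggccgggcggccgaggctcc

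Every listed ER chaperone rose. Of 35 chaperones and oxidoreductases 19 were listed, all higher (54.3%), with a median of 1.62. HSPA5, the ER's main Hsp70 chaperone, also called BiP (chromosome 9, 125234853 to 125241330), had 150057, 140165 and 141452 normalized reads with the combination and 18422, 17909.6 and 18778 with DMSO. The groups lay far apart with little spread in either, and the mean rose 7.83-fold (log2 2.97 ± 0.11, limma adjusted p = 1.58e-08). Per kilobase of transcript HSPA5 reached 36820 normalized reads against 4701, the highest level of any well-expressed row in the combination libraries, and it made up 5.23% to 5.37% of the table's normalized reads against 0.589% to 0.606%. Its co-chaperone DNAJB9 (ERdj4) rose 13.7-fold, from 266, 231 and 242 to 3334, 3418 and 3354. HYOU1, which exchanges nucleotide on HSPA5, had 25468, 22599.8 and 23171 against 4077, 4175 and 3678, a 5.97-fold rise. HSP90B1 (GRP94) had 53889, 52298 and 50698 against 16908, 15141 and 18345, a 3.11-fold rise from a level that was already high. PDIA2, a disulphide isomerase, went from 8.79, 7.34 and 3.2 to 227, 225 and 144. The abundant lectin chaperones CALR and CANX and the isomerases P4HB, PDIA3 and PDIA6 were not listed.

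Genes that dispose of misfolded ER proteins were higher where listed. In the ER-associated degradation list 13 of 34 members were higher and 0 lower (38.2%, median 1.73). The ubiquitin ligase SYVN1 (HRD1) rose 6.33-fold (5183, 4795 and 4603 against 746, 789 and 769) and its partner HERPUD1 5.46-fold (11087 ± 1355 against 2030.03 ± 72.7). SEL1L, the adaptor of the same ligase, had 1984, 4106 and 3716 against 764, 802 and 929.7, so combination replicate 1 lay between DMSO and the other two. SELENOS, a membrane protein of this channel, rose 4.12-fold. By contrast the proteasome list, where such proteins end, had 1 of 40 members listed.

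Most listed genes of entry into the ER and all listed genes of export from it were higher. Of 48 genes of translocation and N-glycosylation 14 were higher and 1 lower (29.2%, median 1.34). The signal peptidase subunit SEC11C rose 4.06-fold (1983, 1663 and 1768 against 468, 451 and 415), and GFPT1, UAP1, PGM3, PMM2 and GMPPB, enzymes that make sugar nucleotides, rose by 1.19 to 1.77 on the log2 scale. The exception was the glucosyltransferase ALG6 (186, 215 and 215 against 423, 387 and 504). None of the listed subunits belonged to the oligosaccharyltransferase itself: STT3A, RPN1, RPN2, DDOST and DAD1 were not listed. In ER-Golgi vesicle traffic 21 of 51 were higher and 0 lower (41.2%, median 1.41). SEC24D, a cargo adaptor of the COPII coat (chromosome 4, 118722823 to 118838683), had 6514, 8015 and 8019.9 against 1018, 989 and 1135, a 7.18-fold rise, and the coat subunit SEC23B had 6729.7, 6611 and 6614 against 1659.5, 1517 and 1602. Their paralogs SEC24A, SEC24B, SEC24C and SEC23A were not listed. MIA2, which helps load large cargo, rose 6.91-fold, and the fusion protein BET1 3.58-fold.

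Summed over these 4 secretory lists, 67 of 168 members were higher and 1 lower, with a median of 1.52 over the 68 listed. The listed members together held 450602, 431229 and 430941 normalized reads in the combination libraries and 116020, 112426 and 119951 in the DMSO libraries. They thus took 16.0% to 16.1% of the table's reads against 3.75% to 3.82%, and the 3 libraries of each group hardly differed. The authors listed these members on the same libraries, so the direction of the gap follows from that choice. Members not listed, such as CALR, CANX, P4HB and PDIA3, are not in the sums. The table's reads are also only those of listed genes. Mitochondrial mRNAs took 6.23% to 7.20% of them with the combination and 20.4% to 24.7% with DMSO.

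Most listed members of the ATF4 branch were higher. Of 14 transcription factors and regulators 6 were higher and 1 lower (42.9%, median of the 7 listed 3.83). ATF3, a repressor of the ATF family, had 3148, 2684 and 2649.7 against 61.5, 51.4 and 60.8, and the pro-death factor DDIT3 had 2215, 1497 and 1646 against 108, 122 and 141, with combination replicate 1 the highest in both. NUPR1, a small stress-induced chromatin protein, had 1355, 928 and 1117 against 73.3, 92.7 and 34.2. The pseudokinase TRIB3, which restrains ATF4, rose 14.9-fold (12801 ± 1908 against 857 ± 26.8). JDP2, an AP-1 repressor, was the lower member (269, 271 and 239 against 613, 655 and 486).

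Listed genes of amino acid supply were mostly higher. In the list of amino acid synthesis and folate 11 of 30 were higher (36.7%) and 4 lower (13.3%). ALDH1L2, the mitochondrial formyl-folate dehydrogenase, had 1368, 2729.8 and 2254 against 262, 213 and 273, and the aspartate aminotransferase GOT1 rose 5.23-fold. Asparagine synthetase, ASNS, rose 5.89-fold but from a low level (142, 191 and 192 against 29.3, 24.8 and 35.2), and the serine synthesis genes PHGDH, PSAT1 and PSPH were not listed. The lower members included TYMS, which makes thymidylate, the cytosolic SHMT1, and the arginine synthesis enzyme ASS1 (1739 ± 301 against 3904 ± 217). Of 26 amino acid transporters 7 were higher (26.9%) and 1 lower. SLC3A2, the heavy chain of several exchangers, had 34383, 26922 and 28706 against 7511, 7895 and 6659, and SLC7A11, its light chain for cystine uptake, 4418, 9784 and 8648 against 1809, 1647 and 1928, where combination replicate 1 again lay between DMSO and the other two. The glutamate carrier SLC1A3 was lower at a low level (14.7 ± 4.81 against 55 ± 3.53).

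The charging of tRNA and the control of translation changed in a few members. Of 23 cytosolic tRNA synthetase genes 5 were higher and 0 lower (21.7%): WARS (3.8-fold), AARS (3.48-fold), SARS (3.04-fold), CARS (2.28-fold) and GARS (2.08-fold). In translation control PPP1R15A (GADD34), which brings the phosphatase that restarts translation, had 6935, 5359 and 5873 against 464, 588 and 495, an 11.7-fold rise. The mTORC1 inhibitors SESN2 and DDIT4 rose 4.53-fold and 4.54-fold. Of the binding proteins that hold the cap factor eIF4E, EIF4EBP1 was higher (6766, 4851 and 5235 against 2129, 2099.6 and 1725) and EIF4EBP2 lower (2346, 2515 and 2624 against 5094, 5003 and 5167), with no overlap in either. No cytosolic ribosomal protein gene of 81 was listed, and of 37 genes of ribosome biogenesis only RRP12 and RRP9 were, both higher and close to the listing threshold (log2 1.11 and 1.09).

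**Figure D2:**
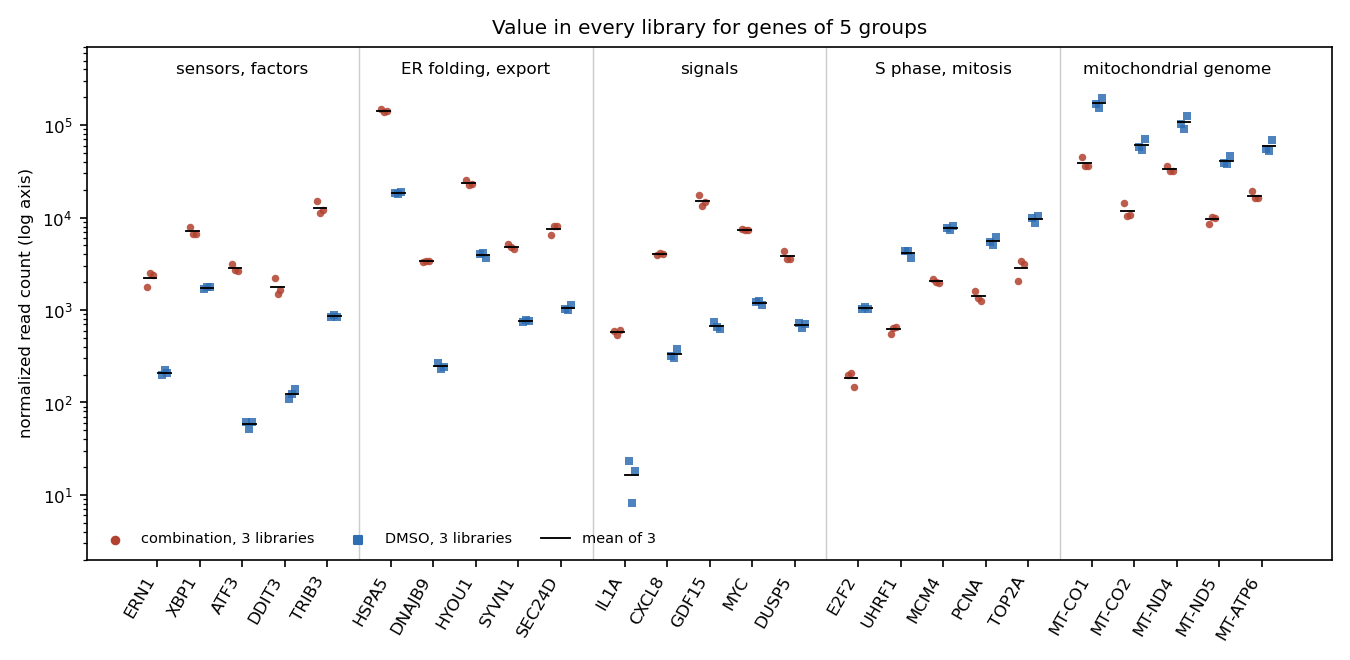
Normalized read counts on a log axis for genes of 5 groups, with circles for the 3 combination libraries, squares for the 3 DMSO libraries and a bar for each mean. In every gene shown the groups do not overlap, and the S phase, mitosis and mitochondrial genes are the ones whose squares lie on top.

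Oxidant defence, metal binding and autophagy genes rose in part. NRF2, the factor that answers oxidants, has 33 targets and partners on its list, of which 12 were higher and 1 lower (36.4%, median 2.01). HMOX1, which breaks down haem, had 549, 396 and 470.2 against 27.3, 26.6 and 31, a 16.7-fold rise. Thioredoxin reductase TXNRD1 had 32021, 36291 and 36519 against 12696, 11972 and 13186, and the iron store FTH1 40198, 31705 and 34523 against 12481, 13084 and 13172, both among the largest gains in reads. The classical target NQO1 was not listed, and AKR1C3 was lower at a low level (18.1 ± 6.13 against 46.9 ± 0.98). Reads of AKR1C genes can be split between near-identical copies, and the same holds for the metallothioneins, of which MT1F, MT1G, MT1M and MT2A were higher among 10.

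In autophagy and lysosome genes 9 of 55 were higher and 0 lower (16.4%, median 2.30). They were mainly genes of the early autophagosome and its cargo: the receptor SQSTM1 (p62) had 31216, 25457 and 26697 against 5748, 6136 and 5081, WIPI1, which binds the forming membrane, 789, 712 and 775 against 102, 77.1 and 75.8, and the ATG8 family members MAP1LC3B and GABARAPL1 rose 4.79-fold and 5.61-fold. LAMP3, an inducible lysosomal membrane protein, went from 3.91, 1.84 and 4.27 to 541, 518 and 463. The constitutive lysosomal genes on the list, LAMP1, LAMP2 and the cathepsins, were not listed. CYP1A1, a cytochrome P450 induced through the aryl hydrocarbon receptor, had 2880.4, 2531 and 2511 against 149, 145 and 147 and TIPARP 676, 708 and 688 against 137, 133 and 144, while CYP1B1 was lower (17.5, 31.5 and 40.2 against 83, 62.4 and 74.7).

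Every listed immediate early and feedback gene was higher. Of 29 immediate early factors 15 were higher and 0 lower (51.7%, median 2.25). MYC, a factor of growth and ribosome genes (chromosome 8, 127735434 to 127741434), had 7518, 7369 and 7369 against 1232, 1244 and 1130.3, a 6.17-fold rise with an SD of 85.9 reads. MAFF, a small MAF protein, had 1526, 1374 and 1440.2 against 103, 146 and 87.5, and the AP-1 subunit FOSL1 1909, 1453 and 1513 against 198, 207 and 169.7. FOS, JUNB, EGR1 and IER2, which peak early after a stimulus, were not listed. Among 19 phosphatases and feedback genes of MAP kinases 7 were higher and 0 lower. DUSP1 rose 5.98-fold, DUSP5 5.58-fold (4381, 3562 and 3603 against 719.9, 639.9 and 709.8) and DUSP8 5.54-fold, while SPRY1, SPRY2, SPRY4 and DUSP6 were not listed.

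Cytokine genes formed a large share. Of 40 cytokines, chemokines and secreted factors 22 were higher (55%) and 1 lower, with a median of 2.82 over those listed. CXCL8, which attracts neutrophils, was the chemokine with the most reads, at 3965, 4158 and 4027 against 316, 302 and 377, a 12.2-fold rise. IL1A, an inflammatory cytokine, had 589.7, 537 and 607 against 23.4, 8.26 and 18.1 and IL23A, a subunit of interleukin 23, 169, 143 and 176 against 5.86, 2.75 and 2.13. LIF had 1038, 1085 and 1012 against 312, 323 and 265. GDF15, a stress hormone that suppresses appetite (chromosome 19, 18374731 to 18389176), had 17488, 13305 and 14919.5 against 735, 651 and 616, and STC2, a glycoprotein induced by ER stress, 5148, 4535 and 5106 against 562, 591 and 524. The EGF receptor ligand EREG had 216, 427 and 349 against 10.7, 16.5 and 10.7, with replicate 1 the lowest. TGFB1 was the lower member (726, 521 and 529 against 1359, 1430.3 and 1241). CXCL1, CXCL2 and CXCL3 are near-identical, so their reads can be split between them.

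NF-kB is a factor known to induce many cytokine genes, and its part in these rises was not tested. Of its regulators 8 of 20 were higher and 0 lower (40%, median 1.36). TRAF1 rose 18.1-fold (434, 321 and 366 against 18.6, 23 and 20.3), BIRC3 8.24-fold and NFKB2, which encodes a subunit of the non-canonical arm, 3.48-fold (8586, 6719.7 and 6954 against 2277, 2199.7 and 1927). NFKBIA, RELA and NFKB1 were not listed. The NF-kB element was searched in 3 spellings, GGGAC or GGGAA before TTTCC and GGGGA before TTCCC. It stood in 12 upstream windows of higher genes (1.49%), 0 of lower genes and 0.41% of all. The 12 were those of CXCL1, CXCL2, CXCL3, CXCL5, TNFAIP3, NFKBIZ, TNFRSF9, LRRC49, HLA-B, BNIP1, SGPP2 and APLF. As CXCL1, CXCL2 and CXCL3 are near-identical, their windows may not be separate occurrences. The window of CXCL3 is shown as an example, with the match at -79 in capitals (chr4:74038690-74038889, minus strand, GRCh38.p14).
CXCL3: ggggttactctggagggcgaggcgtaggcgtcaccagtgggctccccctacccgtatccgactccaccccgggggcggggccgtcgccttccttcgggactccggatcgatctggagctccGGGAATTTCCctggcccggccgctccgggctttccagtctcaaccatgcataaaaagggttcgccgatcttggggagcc

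CXCL3 had 225, 208 and 237 normalized reads against 6.84, 1.84 and 18.1. The DMSO values spanned a wide range at a few reads, so its log2 fold change of 4.90 ± 0.55 was 4.19 without DMSO replicate 2 and 5.57 without DMSO replicate 3. AP-1 letters, TGACTCA, stood in 4.48% of higher, 1.86% of lower and 4.16% of all windows. The interferon list did not share the direction, with 2 of 30 higher (6.67%, ISG20 and IRF1) and 2 lower (6.67%). Both shares lay under those over all genes, 10.3% and 7.27%. BST2, a virus-restricting membrane protein, was the best expressed of them (172, 111 and 128 against 516, 549 and 521), and IFIT1 fell by 2.32 on the log2 scale.

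**Figure D3:**
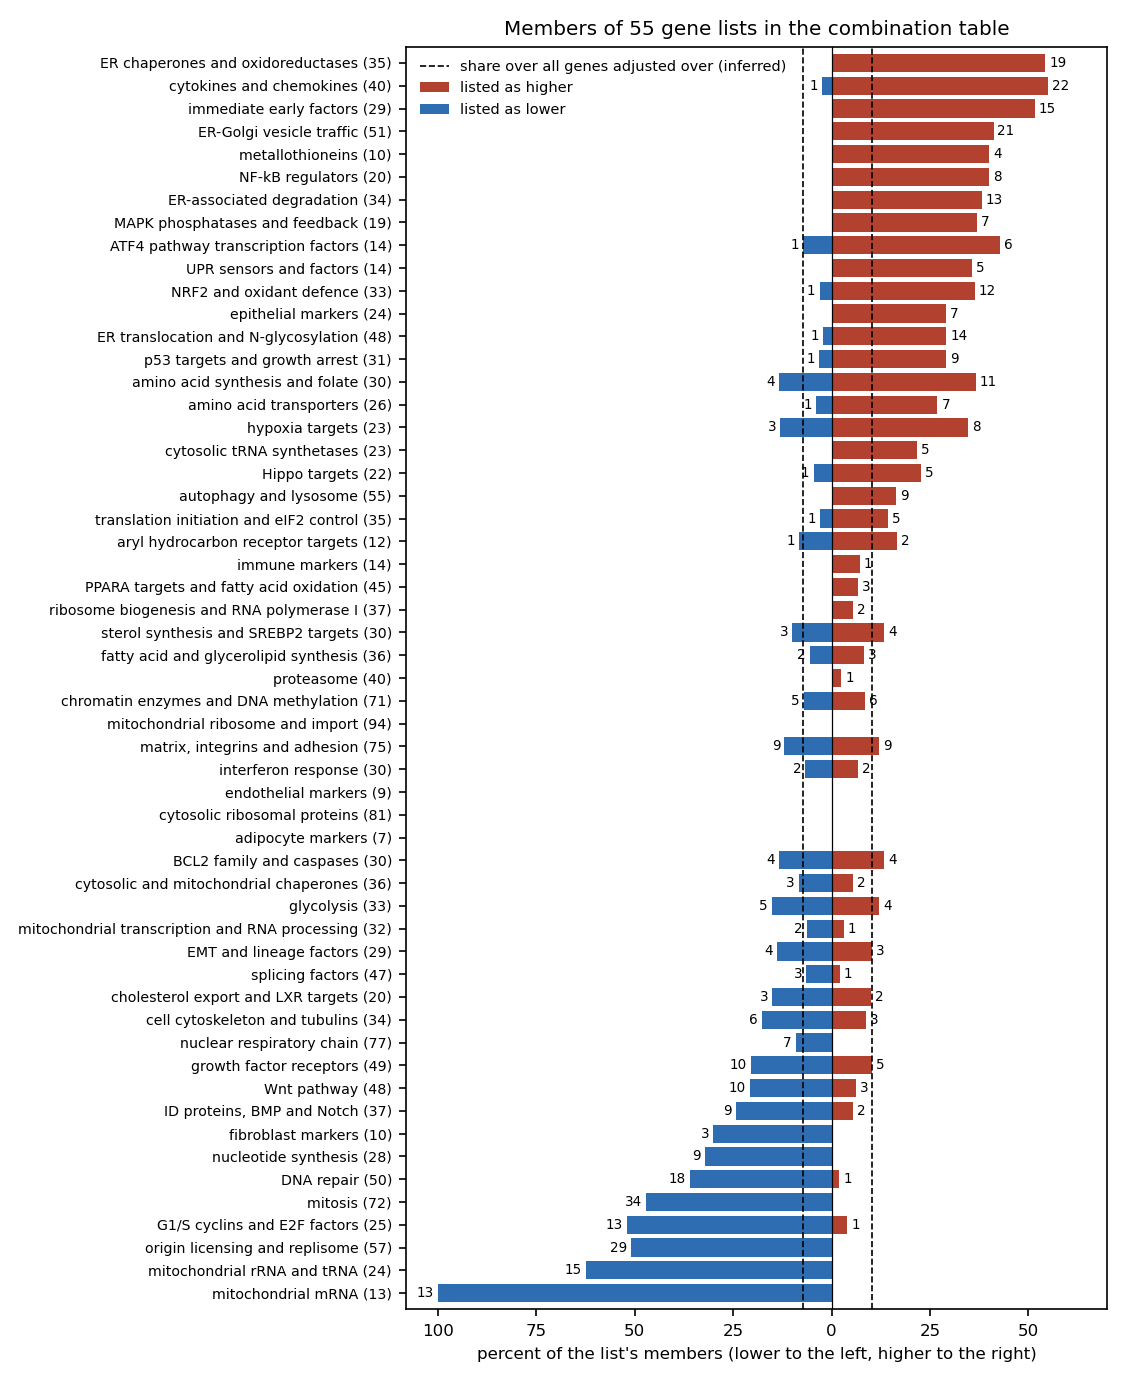
For 55 gene lists, with their number of members in brackets, the bars give the percent of members that the authors listed as higher (right) and lower (left), with the number of genes at the bar's end. Dashed lines mark the shares over all genes, 10.3% higher and 7.27% lower. ER chaperones, cytokines and immediate early factors lie at the top and the mitochondrial, origin licensing, G1/S and mitosis lists at the bottom.

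Every listed DNA replication gene was lower. Of 57 genes of origin licensing and the replisome 29 were lower and 0 higher (50.9%, median -1.41). UHRF1, which copies DNA methylation behind the fork (chromosome 19, 4903080 to 4962154), had 548, 644 and 659 with the combination and 4334, 4394 and 3657 with DMSO, a log2 change of -2.74 ± 0.12 (limma adjusted p = 2.92e-08). The sliding clamp PCNA had 1609, 1361 and 1262 against 5479.6, 5086 and 6163. Of the MCM helicase, MCM4 (2145, 2024 and 1948 against 7800.4, 7372 and 8044), MCM3 and MCM6 had log2 fold changes of -1.92, -1.14 and -1.18, and MCM2, MCM5 and MCM7 were not listed. GINS1, GINS2 and GINS4 of its GINS partner had -1.54, -1.42 and -1.54. No subunit of the clamp loader (RFC1 to RFC5) was listed. In bulk RNA, fewer cells in S phase and less of these mRNAs per cell cannot be told apart.

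Listed regulators of S phase entry were lower, apart from 1 cyclin. Of 25 G1/S cyclins and E2F factors 13 were lower (52%) and 1 higher, with a median of -1.82 over the 14 listed. E2F2 had 196, 207 and 147 against 1019.7, 1069 and 1033 and E2F8 140.3, 171 and 175 against 1103, 1006 and 1248. The activator E2F1 had 529, 467 and 487 against 2061, 2393 and 1609.6. Cyclin E genes fell, CCNE1 from 515, 481 and 521 to 117, 90.8 and 112 and CCNE2 from 320.4, 279 and 401 to 57, 66.7 and 74.7, with the kinase CDK2 (431, 327 and 364 against 1374, 1269 and 1339.6) and SKP2, which removes a CDK inhibitor (664, 870.1 and 869 against 3131, 2915 and 3270.4). CCND1 remained abundant at 5195, 5408 and 5153 against 11927, 12622 and 12358. CCND2 was the higher member, from 3.91, 10.1 and 9.61 to 127, 89 and 89.1, at well under the level of CCND1 in reads.

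E2F letters were more frequent upstream of lower genes. TTTCCCGC, TTTGGCGC, TTTCGCGC or TTTGCCGC, on either strand, stood in 51 windows of lower genes (5.94%), 25 of higher genes (3.11%) and 2.79% of all. The E-box CACGTG went the other way, with 11.4% of higher, 6.29% of lower and 6.49% of all windows. PCNA and MCM6 are shown because their mRNAs fell and their windows hold such letters. Both lie on the minus strand of GRCh38.p14, at chr20:5126623-5126822 and chr2:135876444-135876643. Capitals mark the match at -59 in PCNA, which reads TTTCCCGC on the other strand, and the matches at -152 and -90 in MCM6.
PCNA: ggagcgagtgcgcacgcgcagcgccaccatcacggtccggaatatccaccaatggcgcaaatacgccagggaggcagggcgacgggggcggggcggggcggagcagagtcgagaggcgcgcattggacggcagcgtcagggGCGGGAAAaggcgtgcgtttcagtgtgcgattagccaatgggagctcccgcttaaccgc
MCM6: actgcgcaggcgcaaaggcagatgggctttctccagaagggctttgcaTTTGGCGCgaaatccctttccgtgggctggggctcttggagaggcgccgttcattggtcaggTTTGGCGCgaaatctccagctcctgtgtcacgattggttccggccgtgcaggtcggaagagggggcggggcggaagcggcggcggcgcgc

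Listed genes of nucleotide supply and repair were lower, with 1 exception in repair. In nucleotide synthesis 9 of 28 were lower and 0 higher (32.1%, median -1.42). They were mostly enzymes of deoxynucleotides, such as TYMS, TK1 (1838, 1314 and 1580.05 against 4328, 4861 and 3939.7), RRM1, RRM2, DUT and DCK, whereas the purine genes GART, PAICS, PPAT and IMPDH2 were not listed. In DNA repair 18 of 50 were lower (36%, median -1.34) and 1 higher. BRIP1 and RAD54L, which act in repair by recombination, had log2 fold changes of -1.77 and -1.65, and the exception was FANCF (393, 394 and 397 against 188, 159.7 and 210.3). BRCA1, BRCA2 and the checkpoint kinases ATR and CHEK1 were not listed.

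In mitosis 34 of 72 genes were lower and 0 higher (47.2%, median -1.37). TOP2A, which untangles chromosomes, had 2067, 3397 and 3156 against 9815, 8827 and 10468 and ANLN, a scaffold of the cleavage furrow, 1299.9, 2172 and 2128 against 6393, 5774 and 7662. CDK1 had 762, 870.1 and 809 against 2239, 2051 and 2643 and the mitotic factor FOXM1 1917, 1876 and 1804 against 4786, 4785 and 4781. The kinetochore genes CENPI and SPC25 had log2 fold changes of -2.21 and -2.02. PLK1, AURKA, AURKB, CDC20 and BUB1 were not listed. Over these 5 division lists 103 of 232 members were lower (44.4%) and 2 higher, with a median of -1.37.

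Listed growth arrest genes were mostly higher and death genes mixed. Of 31 p53 targets and arrest genes 9 were higher and 1 lower (29%). GADD45A, a growth arrest protein (chromosome 1, 67685061 to 67688338), had 10385, 10250.1 and 10663 against 539, 570.1 and 505, a 19.4-fold rise with an adjusted p of 1.55e-09 by limma. TNFRSF10B, the death receptor DR5, which CHOP is known to induce, had 8893, 9017 and 8928 against 1758, 1716 and 1717, and the CDK inhibitor CDKN1A rose 2.58-fold. The p53 targets MDM2, ZMAT3, RRM2B and SESN1 were not listed. Of 30 BCL2 family and caspase genes 4 were higher (13.3%) and 4 lower (13.3%), against 10.3% and 7.27% over all genes. The BH3-only killers HRK (149, 121 and 91.9 against 7.81, 6.43 and 23.5) and BBC3 (728, 659.7 and 715 against 229.5, 274 and 141), BIK and PMAIP1 were the higher ones. BCL2, CASP2 (694, 715 and 762 against 1614, 1536 and 1723), CASP6 and APAF1 were the lower ones.

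Every listed transcript of the mitochondrial genome was lower. All 13 mRNAs were listed and lower (100%, median -2.01), and 15 of 24 rRNA and tRNA genes were lower and 0 higher (62.5%, median -2.51). The 15 were all tRNA genes, and only 5 of them had a mean of 50 or more. Together they held a mean of 512 normalized reads with the combination and 3193.5 with DMSO. MT-CO1, a cytochrome oxidase subunit (chromosome MT, 5904 to 7445), had 45109.5, 35821 and 36305 with the combination and 170435, 154603 and 197341 with DMSO. MT-CO2 had 14537, 10494 and 10576 against 58578, 53752 and 69939.8 and MT-ND4, of complex I, 35951, 31874 and 31950.5 against 103402, 91616 and 125795. The highest combination library lay below the lowest DMSO library by a wide margin in all 3 genes, and DMSO replicate 3 was the highest library in each. Limma gave -2.16 ± 0.15 for MT-CO1 (adjusted p = 4.44e-07) and -1.67 ± 0.14 for MT-ND4 (adjusted p = 1.69e-06).

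Listed genes annotated on either strand of the mitochondrial DNA were lower. The use of strand in counting is not given, so reads from opposite strands cannot be told apart. The 12 mRNAs on the plus strand had a median of -1.96 and ranged from -2.58 (MT-ATP8) to -1.67 (MT-ND4), and MT-ND6, the mRNA of the minus strand, was at -2.01 (3530.3, 2885 and 3138 against 12677, 12213 and 13538). The rRNAs MT-RNR1 and MT-RNR2 were not listed. The tRNA genes MT-TL1 (63.6, 69.5 and 67 against 615, 469 and 693), MT-TY and MT-TC had log2 fold changes of -3.11, -2.95 and -2.75. Reads on tRNA genes in an mRNA library cannot be told apart from those of precursors or of overlapping mRNA ends. Summed over the 13 mRNAs, the libraries held 201274, 166851 and 168995 normalized reads against 664142, 610911 and 786861, or 6.23% to 7.20% of the table against 20.4% to 24.7%.

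**Figure D4:**
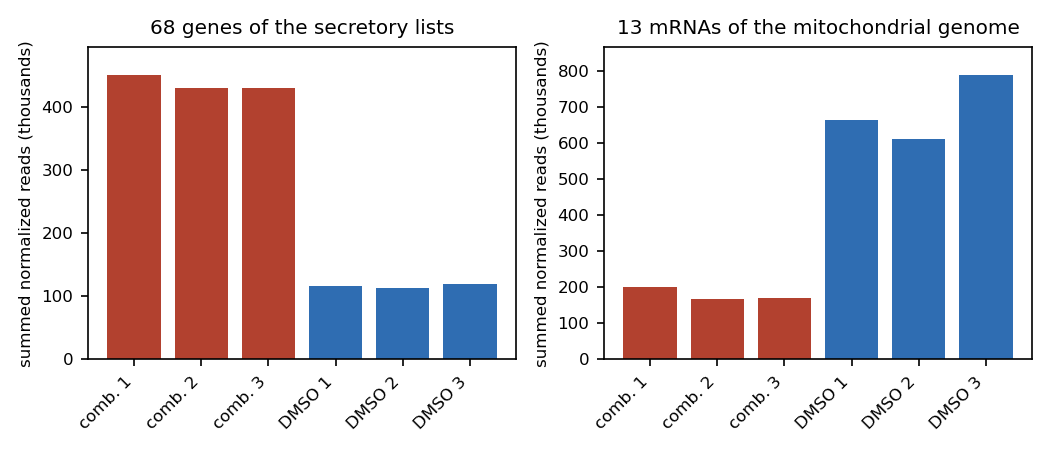
Bars give summed normalized reads in each library for the 68 listed genes of the 4 secretory lists (left) and the 13 mRNAs of the mitochondrial genome (right). Secretory sums run from 430941 to 450602 reads with the combination and from 112426 to 119951 with DMSO, and mitochondrial sums from 166851 to 201274 and from 610911 to 786861. Secretory members that were not listed are left out, so the direction of that gap follows from the listing.

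Nuclear genes of the same organelle were mostly absent from the table. Of 77 nuclear subunits of the respiratory chain 7 were lower and 0 higher (9.09%, near the 7.27% over all genes), among them NDUFB3 (195, 168 and 139.8 against 459, 465 and 519.8) and ATP5MC3 (1484, 1082 and 1211 against 3178, 3127 and 2950.2). None of 94 genes of the mitochondrial ribosome and protein import was listed. Of 32 genes of mitochondrial transcription and RNA processing 3 were listed: the RNA helicase SUPV3L1, which degrades mitochondrial RNA, was higher (2239, 1869.9 and 1826 against 736, 637 and 798), and FASTKD1 and KIAA0391, a subunit of mitochondrial RNase P, were lower. POLRMT, TFAM and PPARGC1A were not listed. The mitochondrial chaperonin partner HSPE1 was lower (643, 498 and 569.8 against 1329, 1342 and 1588), as was the cytosolic chaperone HSP90AA1, with 14788, 13910.1 and 14171 against 47144, 43840.2 and 49959.6. Of 36 cytosolic and mitochondrial chaperones 2 were higher (5.56%, under the 10.3% over all genes) and 3 lower (8.33%, near the 7.27%). HSPA6, an inducible Hsp70 absent from resting cells, was among the higher ones at 107, 113 and 137 against 0.977, 0.918 and 3.2, and it has a near-identical copy.

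Genes next to the drugs' named targets gave few members. PPARA, NPC1L1 and PKM were not listed. Of 45 PPARα targets and fatty acid oxidation genes, counting any too low to test, 3 were higher and 0 lower (6.67%, under the 10.3% over all genes). Among them were the lipid droplet protein PLIN5 and the acyl-CoA synthetase ACSL5, both with a mean under 50. The textbook targets CPT1A, PDK4 and ANGPTL4 were not listed. Of 30 genes of sterol synthesis and SREBP2 targets 4 were higher (13.3%) and 3 lower (10%), near the 10.3% and 7.27% over all genes. The sterol carrier STARD4 had 458, 684 and 666 against 124, 145 and 149. ACAT2 (429.6, 429.9 and 409 against 1006, 991 and 1013), which makes acetoacetyl-CoA, and TMEM97 were among the lower members. Among the enzymes of sterol synthesis, CYP51A1 and HSD17B7 were listed as higher, and CYP51A1, at 122, 283 and 245 against 86, 130.4 and 106, overlapped DMSO through combination replicate 1. Its limma adjusted p became 0.0687 without combination replicate 2 and 0.0581 without replicate 3. Of 20 genes of cholesterol export and targets of the receptor LXR 2 were higher (10%, near the 10.3%) and 3 lower (15%). NPC1, the exporter of lysosomal cholesterol, was among the higher ones and rose 3.3-fold (1814, 1947 and 1851 against 591, 584 and 527). MYLIP and LPCAT3 were among the lower ones, with log2 fold changes of -1.61 and -1.05.

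Listed glycolysis genes were split, and listed hypoxia targets were mostly higher. Of 33 glycolysis genes 4 were higher (12.1%, near the 10.3% over all genes) and 5 lower (15.2%, against 7.27%). Hexokinase HK2 had 3477, 4849.8 and 4586 against 1118, 1259 and 1118, while enzymes of later steps, PGAM1 (3659.7, 2881 and 2862 against 7558, 7346 and 7756), TPI1 and LDHA (12468, 9943 and 10161 against 22979, 21487 and 24214), were lower. Of 23 hypoxia targets 8 were higher (34.8%) and 3 lower (13%), with a median of 1.90 over those listed. EPAS1, which encodes HIF-2α, had 784, 988 and 1019.9 against 14.7, 48.7 and 43.8, and VEGFA 3198, 3667 and 3812 against 1075, 937 and 854, but CA9, EGLN3 and ADM were not listed, and CA12 and PLOD2 were lower, with log2 fold changes of -1.51 and -1.76.

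Of the listed BMP, Notch and Wnt genes more were lower than higher. In the list of ID proteins, BMP and Notch 9 of 37 were lower (24.3%) and 2 higher. ID1, an inhibitor of helix-loop-helix factors and a direct BMP target (chromosome 20, 31605283 to 31606515), had 413, 319.7 and 381 against 3488, 3605 and 3212, with ID2 (347, 276 and 321 against 1818, 1824 and 1932) and ID3 (579, 444 and 534 against 3174, 3546 and 2799.7) beside it. NOTCH3 had 564, 565 and 631 against 3653, 4039 and 3404. The BMP receptor BMPR2 had 456, 1060.03 and 891 against 2350.1, 2024 and 2623, and the ligand BMP2 was higher from a low level (129, 162 and 153 against 19.5, 31.2 and 20.3). In the Wnt list 10 of 48 were lower (20.8%) and 3 higher. FZD5, a Wnt receptor, had 1030.3, 1357 and 1454 against 5709, 5889 and 5272, LGR4, which sharpens the signal, 1482, 2943 and 2787 against 7987, 7667 and 8906, and the feedback target AXIN2 32.9, 20.4 and 27.8 against 86, 102 and 91.8. WNT11 (37.3, 32.4 and 36.4 against 0, 11 and 2.13) and DKK1 (7.67, 0.927 and 4.79 against 0, 0 and 0) were higher on few reads, and their log2 fold changes of 3.44 and 2.20 became 2.56 without DMSO replicate 1 (4.36 without replicate 2) and 2.82 without combination replicate 2.

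Listed growth factor receptors moved both ways, and listed targets of the Hippo pathway were higher. Of 49 growth factor receptor genes 5 were higher (10.2%, near the 10.3% over all genes) and 10 lower (20.4%, against 7.27%). EGFR had 3225, 5736 and 5291 against 1321, 1328 and 1366 and DDR2, a collagen receptor, 3171, 5039 and 4572 against 975, 905 and 1020.4. FGFR3 had a log2 fold change of -3.06, and FGFR1, FGFR2 (1422, 1722 and 1638 against 4205, 4295 and 4327), FGFR4 and ERBB2 were lower by less. Of 22 Hippo targets and partners 5 were higher (22.7%) and 1 lower. CTGF (CCN2) had 24947, 22683 and 22990.2 against 6912, 6501 and 7671, CYR61 (CCN1) 20852, 19063 and 19924 against 6483, 6645 and 6225 and ANKRD1 3969.8, 3788 and 3875 against 549, 489 and 533, all induced by YAP, and the lower member was TEAD2, one of the partners of YAP.

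Matrix and lineage genes had no common direction. In matrix and adhesion 9 of 75 were higher (12%) and 9 lower (12%), against 10.3% and 7.27% over all genes. LAMB3, a laminin chain of basement membranes, had 630.2, 583 and 573 against 150.4, 132 and 80.1. The integrin subunit ITGAV had 4205, 9438 and 8729.5 against 17141, 16139 and 19585. Of 24 epithelial markers 7 were higher and 0 lower (29.2%), led in reads by OCLN (693, 1108 and 1026 against 182, 155 and 177), and summed to 1743, 1900 and 1909 against 325, 294 and 338. KRT8, KRT18, EPCAM and CDH1 were not listed, so the epithelial identity of the line could not be checked with them. Of 10 fibroblast markers 3 were lower and 0 higher (30%), COL1A1, PDGFRB and PDGFRA, and summed to 696, 624 and 638 against 2142, 2329 and 1971. Both sums hold only listed markers, 4 of the 7 epithelial and 2 of the 3 fibroblast ones with a mean of 50 or more. The authors listed them on these same libraries, so that the sums separate the groups follows from the choice. Whether the marker sets as wholes shifted cannot be told, and their part in other results was not tested. Of 29 lineage factors 3 were higher (10.3%) and 4 lower (13.8%). The homeobox factor MSX1 was among the lower ones (2189, 1750.3 and 2022 against 9995, 11492 and 9252).

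The steepest rises and falls were mostly in genes outside these groups. KLHDC7B, a kelch domain protein (chromosome 22, 50545891 to 50551023), had 1995, 1776 and 1853 against 8.79, 18.4 and 4.27, a 179-fold rise (log2 7.55 ± 0.38, limma adjusted p = 7.61e-08). FAM129A (NIBAN1), a stress-induced regulator of translation, had 3701, 5619.8 and 5010.2 against 116, 135 and 109, and DEPP1, a FOXO target of autophagy, 1034, 813 and 791 against 14.7, 18.4 and 23.5. NGFR, the low-affinity neurotrophin receptor, went from 2.93, 1.84 and 1.07 to 192, 147 and 136, OSCAR, a collagen-binding immune receptor, from 3.91, 4.59 and 2.13 to 300.3, 294 and 281, and PCDH12, a protocadherin, from 0.977, 7.34 and 4.27 to 201, 145 and 157. LURAP1L (96.5, 119.5 and 119) and TMEM125 (142, 174 and 148) were near 0 in DMSO, at 0.977, 0 and 0 and 1.95, 2.75 and 1.07. The zinc transporter SLC30A2 and the Wnt antagonist DACT1 belong to the same tier, at 584, 537 and 526 against 16.6, 14.7 and 3.2 and 132, 119 and 148 against 0, 2.75 and 2.13, with log2 fold changes of 5.71 and 5.87. Leaving out a DMSO library lowered both, SLC30A2 to 5.05 (replicate 3) and DACT1 to 5.28 (replicate 1).

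The steepest falls left few reads. METTL7A, a methyltransferase of lipid droplets and the ER (chromosome 12, 50923472 to 50932517), had 14.2, 11.1 and 10.5 against 229.5, 208 and 215 (log2 -4.08 ± 0.23, limma adjusted p = 1.44e-07). LIX1 was the most abundant of the steepest falls after ID1, at 135, 129.7 and 162 against 1275, 1279 and 1568. SAMD11 (25.2, 13.9 and 23.9 against 347, 432 and 258), PCDH17, a protocadherin (19.7, 15.8 and 11.5 against 212, 211 and 232), SEMA3F, a guidance factor (13.2, 16.7 and 23.9 against 231, 258 and 218), and the homeobox factor MEOX1 (27.4, 16.7 and 25.9 against 352, 321 and 251) ended near the same level. CSPG5, a neural proteoglycan, and S1PR5, a sphingosine phosphate receptor, had log2 fold changes of -3.60 and -3.38. In TRERF1 the combination libraries differed, with 23, 69.5 and 26.8 against 285, 389 and 439, but did not overlap DMSO.

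The direction of change also varied with the length of the gene on the chromosome. Over 8 bins of nuclear protein-coding genes with a mean of 50 or more, the share of higher genes went from 56.7% in the shortest bin (996 to 6524 bases from first to last base) to 37.2% and 35.2% in the longest (72377 to 135657 and 136432 to 2057829). It was between 47.5% and 52.1% in the 5 bins between. The decline was present in the lower-expressed part of the genes, from 59.8% to 39.1% over 4 bins, and in the higher-expressed part, from 46.4% to 34.1%. The shares were the same without combination replicate 1, as the listing fixes each gene's direction.

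Combination replicate 1 differed from the other two along this axis. In the shortest bin its median rise was 1.73, against 1.5 and 1.62 in replicates 2 and 3, and its median fall -1.25 against -1.48 and -1.40. In the longest bin its median rise was 1.31, against 1.48 and 1.40, and its median fall -1.60 against -1.28 and -1.28. The values of SEL1L, SLC7A11, ITGAV and LGR4 above, lower in replicate 1 than in the other combination libraries, follow the same order. The direction of no named gene depended on this library. Each combination library was set against the mean of the DMSO libraries. The DMSO libraries also differed from each other, with a chi-square per gene of 6.43 to 27.6. Whether they varied along the same axis was not tested.

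**Figure D5:**
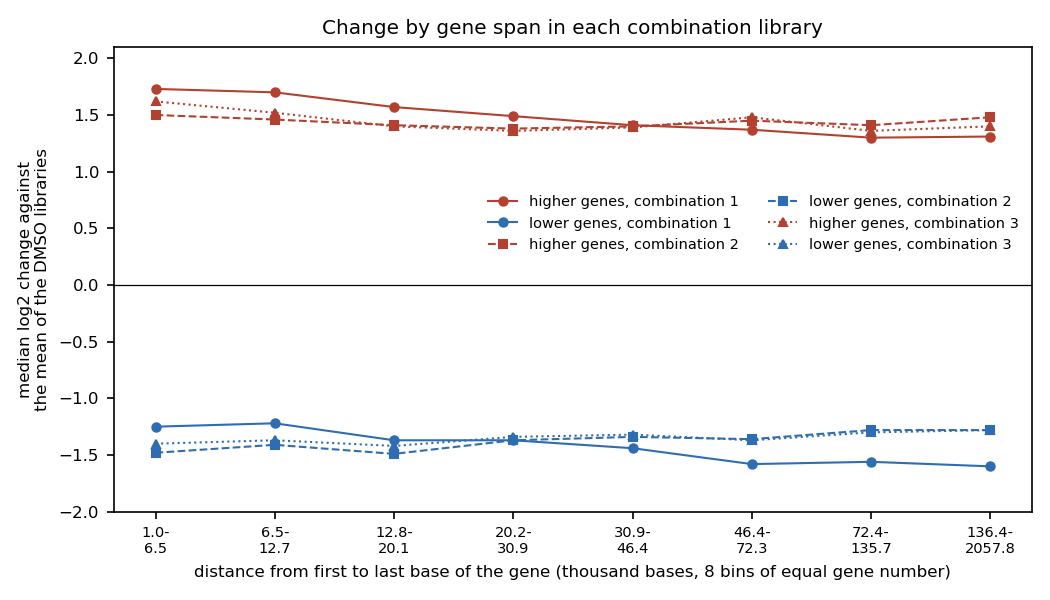
Median log2 change of higher (upper lines) and lower (lower lines) genes in each combination library against the mean of the DMSO libraries, over 8 bins of gene span in kilobases. Replicate 1 runs from 1.73 to 1.31 and from -1.25 to -1.60, while replicates 2 and 3 stay between 1.36 and 1.62 and between -1.49 and -1.28.

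Single-drug values can be given where those tables also list the gene. All contrasts use the same 3 DMSO libraries and each table was normalized separately, so the numbers are set side by side and not tested against each other. On the log2 scale ATF3 changed by 1.23 with fenofibrate, 1.47 with ezetimibe and 5.58 with both. KLHDC7B changed by 3.52, 5.92 and 7.55, and TRIB3 by 1.79, 2.56 and 3.89. HSPA5 is listed for ezetimibe (1.46) and the combination (2.97), as is IL1A (1.47 and 5.15). ID3 stood at -2.35 with ezetimibe and -2.61 with both. The arrestin-like gene ARRDC4 was listed in opposite directions, at -1.73 with fenofibrate and 1.00 with both.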

How the data were processed

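Counts are of RNA-seq reads per gene from 6 libraries, 3 per group. Per the submitters' processing notes, reads were handled with fastp, HISAT2 2.0.5 and featureCounts 1.5.0-p3 on hg38. The tool behind the comparison and the use of strand in counting are not given in the sources used here, so reads of overlapping, antisense or near-identical genes cannot be told apart. The signal deposited by the authors is the read count divided by a factor per library: all values (100%) came out as whole reads within 0.001. The deposited table also holds the authors' log2 fold changes and p-values, used only to establish the listing thresholds (1 and 0.05) and, from whole ranks in 89.8% of 949 p-values, the 19944 genes adjusted over. Every value in the text was computed from the library columns.

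Fold changes, SEs and adjusted p-values come from limma 3.58.1 (R 4.3.3, trended eBayes) on log2(value + 1), which understates changes of low genes, with Benjamini-Hochberg adjustment over all 3508 rows. The script recovered known changes in simulated data, which checks the script and not the results, since the authors chose the table's rows as changed. An exact permutation test of 3 against 3 libraries cannot go below 0.1 (2-sided). edgeR 4.0.16 and DESeq2 1.42.0 were run on the recovered reads, and pseudocount, scaling, filters, a replicate block and left-out libraries were varied. Positions are on hg38 as the table gives them, and 3507 of 3508 equal GENCODE 29. Promoter windows were matched by symbol for 2319 rows. No multiple testing applies to lists or motifs, which are counts.

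The members and the 55 lists were chosen with earlier results of these data known. Genes named are, at a mean of 50 or more and without overlap, the 15 largest rises and falls in fold change, the 10 largest in reads, up to 4 members per list, the 5 largest of each direction among genes that are not protein-coding, and members moving against their list. Other genes given with values were chosen after their values were seen. Some members are not reported here.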

Additional observations from a re-analysis of the deposited data

How the results depend on the processing

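Over 14 alternative settings no gene or list result reversed. All 80 list counts (1120 values) stayed within 1.5 times, and 4153 of 4155 values of 297 genes kept their call. The other 2 are those of CYP51A1, described with the sterol genes. The authors chose the rows on these same libraries, so calls and directions were largely fixed in advance. Their stability is therefore no independent check of the results. DESeq2 called 3506 of 3508 rows and edgeR's scaling by TMM kept 2058 rows higher. Against edgeR with the deposited factors, that scaling moved changes by a median of -0.22 on the log2 scale. Equal library totals moved them by 0.17 against the main limma fit. Both medians are over rows with a mean of 50 or more. Requiring a mean of 200 left 1591 rows, 713 higher and 878 lower, so 713 also among rows with a mean of 50 or more. Requiring an absolute log2 fold change of 2 left 1211 rows (882 higher, 329 lower), and 473 of those with a mean of 50 or more (279 higher, 194 lower). Leaving out each library in turn gave 3474 to 3494 rows, 2029 to 2050 higher and 1442 to 1447 lower. In rows with a mean of 50 or more it gave 2296 to 2303, 1122 to 1128 higher and 1174 to 1175 lower. Where an arm then held 2 libraries, limma pooled the spread over both arms.

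Libraries with the same replicate number did not deviate together (correlations 0.09, -0.33 and 0.16), so the numbers do not pair them. Only combination replicate 3 correlated best with its own number. Between libraries of different numbers the correlations ran from -0.333 (combination 1 with DMSO 3) to 0.338 (combination 2 with DMSO 3). Combination 1 with DMSO 2 had 0.307. A fit with the replicate block still called 3508 rows, 2058 of them higher. Rows that the authors did not list, total library depth and doses limit what can be said: a gene that is not listed has no value, and with 3 libraries per group of unstated origin the p-values may measure technical spread. Genes with few DMSO reads have the least certain fold changes.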

Other observations

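Transcription factors differed by family, counting rows with a mean of 50 or more and the family given in the deposited table. Of 212 factors 121 were higher (57.1%), against 49% of all such rows. C2H2 zinc finger genes were mostly higher, 64 of 85 (75.3%), among them KLF4 (195, 173 and 189.6 against 20.5, 38.6 and 20.3), which restrains division, while SALL2 was lower (60.3, 53.7 and 57.5 against 360.4, 449.9 and 369). Of 13 bZIP factors 11 were higher. NFIL3, a repressor of clock genes, had 1587, 1277 and 1364 against 115, 166 and 187, and the clock factor DBP was lower (101, 81.5 and 98.6 against 215, 179 and 193). Homeobox genes were mostly lower, with 6 of 17 higher: HOXA13 had 23, 37.1 and 43.1 against 177, 198 and 207 and HOXA5 127, 126 and 106 against 648, 662 and 703. The orphan receptors NR2F1 (48.2, 47.3 and 49.8 against 320.4, 365 and 279), NR2F2 (2004, 2827 and 2943 against 10037, 10909 and 9898) and NR2F6 were lower, as were all 8 HMG box factors, SOX5 among them (65.8, 73.2 and 83.3 against 231, 292 and 384). These families were chosen after their values were seen and carry no test. They were not matched for level: the median mean was 199 reads for C2H2 genes and 450 for rows of no family.

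Among rows that do not code for protein, the direction at a mean of 50 or more differed by class. Of 42 lincRNA genes 34 were higher (81%), of 49 transcribed unprocessed pseudogenes 42 (85.7%) and of 26 antisense genes 19 (73.1%), against 991 of 2099 protein-coding genes (47.2%). The classes were not matched for level: their median means were 126, 139 and 108 reads, against 504 for protein-coding genes. Among nuclear protein-coding genes the share of higher genes was 57.1% in the lowest of 5 level bins and 44.3% in the highest. Processed pseudogenes were higher in 9 of 22 (40.9%), transcribed processed pseudogenes in 2 of 9 (22.2%), unprocessed pseudogenes in 6 of 12 (50%), and mitochondrial tRNA genes in 0 of 5. NEAT1, the scaffold RNA of paraspeckles, had 4104, 4251 and 4419 against 645, 756 and 687. The host genes of small nucleolar RNAs ZFAS1 (1436, 1066 and 1092 against 200.2, 214 and 319) and SNHG12 (1350.3, 1065 and 1069.6 against 282, 235 and 225) rose, although no cytosolic ribosomal protein gene was listed. LINC02485 had 85.5, 113 and 111 against 1.95, 5.51 and 5.34, and CASC15 107, 119.5 and 114 against 11.7, 4.59 and 11.7. LINC02593, next to the lower gene SAMD11 on chromosome 1, was one of the lower ones (14.2, 7.41 and 9.58 against 126, 136 and 73.6). Without the strand of the reads, antisense genes cannot be told apart from their partners. MAP1B, a microtubule protein of neurons outside the tubulin genes, was the largest riser of the cytoskeleton list, at 1784, 3591 and 3119.9 against 136, 139.5 and 118, with combination replicate 1 the lowest of its group. Of the 34 members 6 were lower, led in reads by TUBB (10765, 8546 and 8873 against 27245, 26723 and 28275), which has near-identical copies.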
